A study of Mus musculus with 12 samples.

Results

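The 8 genes described here encode acute phase proteins: the serum amyloid genes Saa1, Saa2 and Saa3, the lipopolysaccharide binding protein gene Lbp, the lipocalin gene Lcn2, the orosomucoid gene Orm1, the haptoglobin gene Hp and the ceruloplasmin gene Cp. They are 8 of 12393 genes and 15 of 22690 probe sets on the array, and every probe set annotated to any of them is reported. The list was chosen on measured values of these arrays, since Saa1, Saa2 and Lbp were known to be lower in WAP-SVT/t glands than in NMRI glands. All tissue comparisons of the 8 genes share arrays with that result, so their differences between tissue groups are descriptions without a test.

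RNA from 12 samples was hybridised to 1 array each. Groups of 3 arrays each held WAP-SVT/t breast cancers, mammary glands of WAP-SVT/t mice and mammary glands of NMRI mice without the transgene, and both kinds of gland were taken at day 1 of lactation. All animals were females of the NMRI strain, and the sources used here do not give ages. In WAP-SVT/t mice the simian virus 40 T/t-antigens are made in the epithelial cells of the mammary gland, per the labels, so tumors and transgenic glands both carry the transgene. The remaining 3 arrays held breast cancer lines with 1 array each: ME-A, the revertant ME-B and the retransformed ME-B-T/t. Nothing in the labels says more than sample and tumor numbers about separate animals, so errors below measure the spread between these samples, which may be technical in part.

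Acute phase proteins are blood proteins whose synthesis by the liver changes after infection or injury, mainly in response to interleukin 6, interleukin 1 and tumor necrosis factor. These cytokines act through the transcription factors STAT3, NF-kappaB and C/EBP. Mammary epithelium is known to make several of the same proteins, some of them at the switch from lactation to involution, when STAT3 is active. Serum amyloid A proteins are small apolipoproteins carried on high density lipoprotein, and Saa3 is the mouse member made mostly outside the liver.

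Saa1, Saa2 and Saa3 lie in 1 cluster on mouse chromosome 7, with Saa4 between Saa3 and Saa1. In the RefSeq annotation of GRCm38.p6, Saa3 spans chr7:46711998-46719615, Saa1 chr7:46740497-46743181 and Saa2 chr7:46751833-46754313. Saa1 and Saa2 are 8.652 kb apart, and the 3 genes span 42.31 kb. The other members are scattered: Lbp at chr2:158306493-158332852, Lcn2 at chr2:32384637-32387739, Orm1 at chr4:63344556-63348163, Hp at chr8:109575128-109579172 and Cp at chr3:19956933-20009750. RefSeq promoter sequences of GRCm38.p6, running from 250 bases before to 50 bases after a gene's start, matched 5 of the 8 members by symbol. For Saa1 and Saa3 the start in that table lies inside the gene span given above. The promoters of the serum amyloid genes are printed because genes of this cluster, Saa1 and Saa2 on one side and Saa3 on the other, had unlike values across the tissue groups. Each is given 5′ to 3′ on the gene's strand, and capitals mark matches to the C/EBP motif TTNNGNAA on either strand.
Saa1, chr7:46742931-46743230, minus strand: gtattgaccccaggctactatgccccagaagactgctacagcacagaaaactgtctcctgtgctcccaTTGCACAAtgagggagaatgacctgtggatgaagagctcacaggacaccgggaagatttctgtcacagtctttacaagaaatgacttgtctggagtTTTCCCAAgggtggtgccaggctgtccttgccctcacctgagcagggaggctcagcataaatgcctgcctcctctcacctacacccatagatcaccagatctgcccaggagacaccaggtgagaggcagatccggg
Saa2, chr7:46751583-46751882, plus strand: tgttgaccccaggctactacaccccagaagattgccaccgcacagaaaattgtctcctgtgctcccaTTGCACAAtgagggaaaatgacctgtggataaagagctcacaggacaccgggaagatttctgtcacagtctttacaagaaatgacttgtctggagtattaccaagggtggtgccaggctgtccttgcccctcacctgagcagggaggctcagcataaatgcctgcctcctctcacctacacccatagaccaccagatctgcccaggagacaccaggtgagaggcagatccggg
Saa3, chr7:46715627-46715926, minus strand: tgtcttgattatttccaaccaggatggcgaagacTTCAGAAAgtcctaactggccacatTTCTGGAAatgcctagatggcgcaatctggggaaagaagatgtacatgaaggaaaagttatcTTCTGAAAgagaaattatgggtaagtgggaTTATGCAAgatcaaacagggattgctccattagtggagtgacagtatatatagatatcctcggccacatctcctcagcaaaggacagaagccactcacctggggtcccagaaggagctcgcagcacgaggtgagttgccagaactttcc
The Saa1 and Saa2 promoters had 287 identical positions over an alignment of 301, or 95.35%. Saa3 shared 54.24% with Saa1 and 54.02% with Saa2, close to the 54.21% of Saa1 with the promoter of Lcn2. The C/EBP motif occurred 2 times in Saa1, 1 time in Saa2, 4 times in Saa3, 1 time in Lcn2 and 1 time in each of the 2 Cp promoters, and in 40.7% of 32851 RefSeq mouse promoters of the same length. The STAT motif TTCNNNGAA, present in 8.3% of promoters, and the NF-kappaB motif, present in 8.46%, had no match in these windows, so no motif overlapped another. A match or its absence describes the letters of the window only.

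Values are array signals in intensity units, scaled to a common trimmed mean on every array. Log2 differences were taken after raising signals below 57.5, the 30th percentile over all arrays, to that floor. A fold against a group whose arrays all lie at the floor is therefore given as at least that size. Each array had 67.7% to 72.6% of its probe sets over the floor. The ratio of 3′ to 5′ Gapdh control signal, a measure of RNA integrity, lay between 0.969 and 5.63 in tumors, between 2.49 and 22.5 in transgenic glands, between 2.28 and 40.3 in NMRI glands and between 0.753 and 0.949 in the lines. It was highest in tumor 1, transgenic gland 3 and NMRI gland 3 of their groups. Fewer cells of a type and less RNA per cell cannot be told apart in these bulk samples.

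Saa1 and Saa2, which encode the circulating serum amyloid A proteins, were bright in NMRI glands, below the floor in tumors and, apart from transgenic gland 2, near or below it in transgenic glands. The Saa1 probe set 1419075_s_at had signals of 23.8, 17.4 and 36.7 in tumors, 102, 425 and 33.9 in transgenic glands, and 10956, 9719.5 and 12251 in NMRI glands, here and below in the order of the sample numbers. Every tumor lay below the floor, transgenic gland 2 stood highest among the transgenic arrays, and none of these 6 arrays came near an NMRI gland. The log2 difference of transgenic against NMRI glands was -6.33 ± 0.56 (standard error of the fit, n = 3 each), an 80.6-fold lower level, in which 1 transgenic gland stood at the floor. Without transgenic gland 2 it was -7.16. Tumors were at least 190-fold lower than NMRI glands. Tumors and transgenic glands overlapped on this probe set, with a log2 difference of -1.24 ± 0.56.

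The other Saa1 probe set, 1450788_at, gave the same order, with 21.3, 26.5 and 2.01 in tumors, 76.3, 613 and 36.3 in transgenic glands, and 10762, 10300 and 10490 in NMRI glands. Its log2 difference of transgenic against NMRI glands was -6.24. On this probe set the tumors lay below all transgenic glands, although all 3 tumors and transgenic gland 3 were under the floor. Saa2 had 32.5, 31.1 and 21.2 in tumors, 32.2, 159 and 30.8 in transgenic glands, and 6541, 7110.1 and 7360.4 in NMRI glands on its probe set 1449326_x_at. Only transgenic gland 2 was above the floor among the 6 transgenic and tumor arrays. The log2 difference was -6.44 ± 0.36 for transgenic against NMRI glands, or 86.7-fold lower with 2 of 3 transgenic arrays at the floor. Tumors were at least 122-fold lower than NMRI glands. Saa1 and Saa2 are closely related copies, 1 of the Saa1 probe sets is built on the RefSeq accession that now belongs to Saa2, and the probe sets may read both, so the split between Saa1 and Saa2 is uncertain.

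Saa3, in the same cluster, did not share this pattern. Signals of 1450826_a_at were 632, 389 and 251 in tumors, 1048, 581 and 26.9 in transgenic glands, and 1181, 804 and 2057.5 in NMRI glands. Transgenic gland 1 stood above NMRI gland 2, while transgenic gland 3 was below the floor. The log2 difference of transgenic against NMRI glands was -1.93 ± 0.86, and it was -0.68 without transgenic gland 3, the gland with a Gapdh ratio of 22.5. The part of RNA integrity in this value was not tested. All tumors lay below all NMRI glands, with a log2 difference of -1.66 ± 0.86. Tumors overlapped the transgenic glands (log2 difference 0.27 ± 0.86), and without transgenic gland 3 that difference was -0.98.

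**Figure D1:**
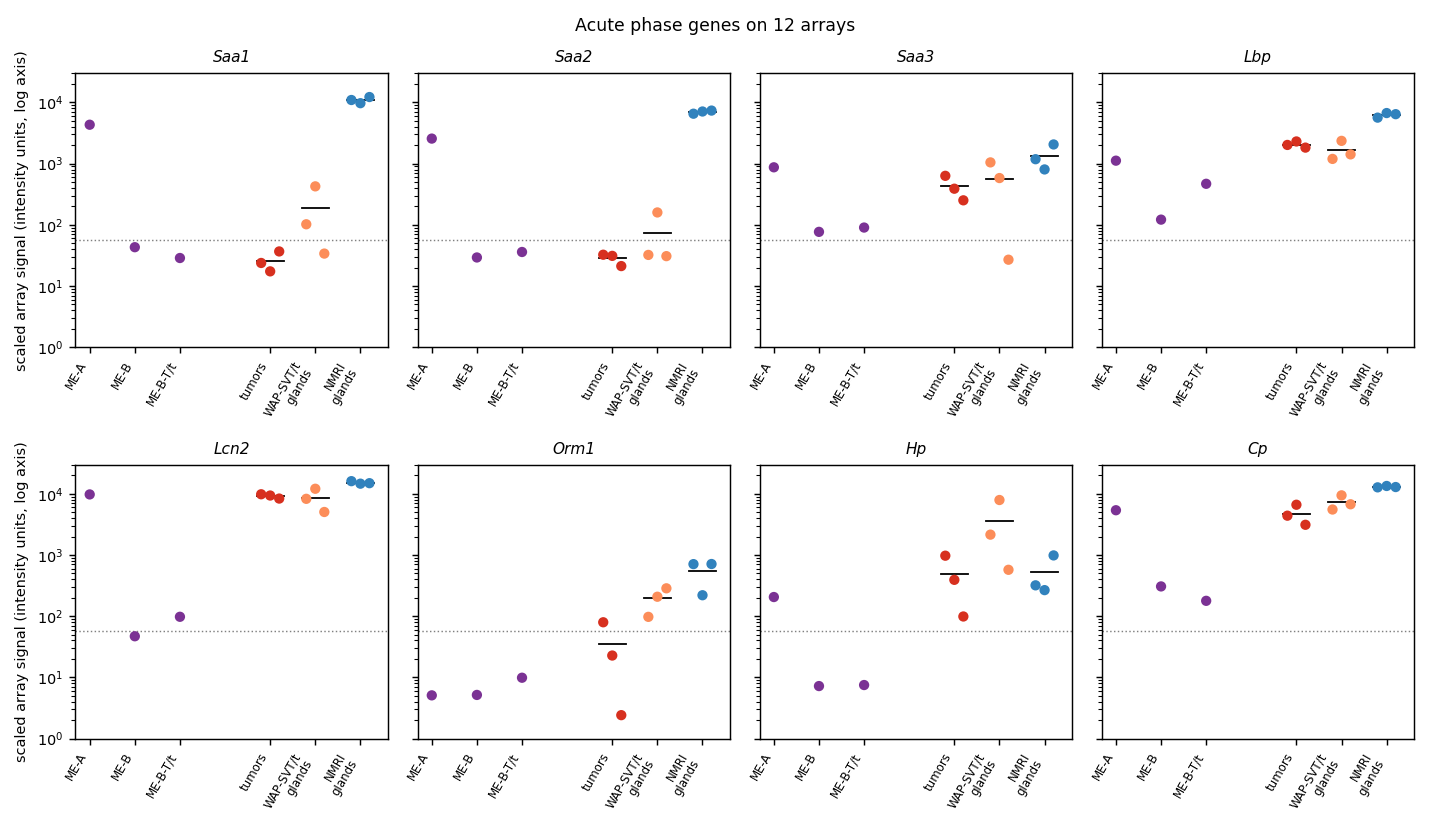
Scaled array signal (intensity units, log axis) of the standing probe set of each of the 8 genes on the 3 lines, 3 tumors, 3 WAP-SVT/t glands and 3 NMRI glands. Points are arrays, black bars are means of 3 arrays and the dotted line is the floor of 57.5. Saa1 and Saa2 are brightest in the NMRI glands and ME-A, and Hp is the gene whose highest points are transgenic glands.

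Lbp and Lcn2, which act against Gram-negative bacteria, stayed well above the floor in every tissue sample. The Lbp protein hands lipopolysaccharide to CD14, and the Lcn2 protein binds bacterial siderophores and so withholds iron. Lbp had 2020.4, 2302 and 1827 in tumors, 1195, 2355 and 1416.5 in transgenic glands, and 5643.5, 6705 and 6429.7 in NMRI glands (1448550_at). Every tumor and every transgenic gland was below every NMRI gland, and tumors and transgenic glands overlapped. Against NMRI glands the log2 difference was -1.98 ± 0.25 in transgenic glands (3.94-fold lower) and -1.61 ± 0.25 in tumors. Tumors differed from transgenic glands by 0.36 ± 0.25.

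Lcn2 had 9800.2, 9348 and 8338 in tumors, 8257, 12057 and 5031.5 in transgenic glands, and 16049, 14598 and 14874 in NMRI glands (1427747_a_at). No array of tumors or transgenic glands reached the NMRI glands, and transgenic gland 2 again stood highest among the transgenic glands. Its log2 difference was -0.93 ± 0.25 for transgenic against NMRI glands and -0.73 ± 0.25 for tumors against NMRI glands. After quantile normalization the difference between tumors and NMRI glands turned to 0.11, so the direction for Lcn2 in tumors depends on the scaling.

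Orm1 and Hp varied widely within groups. Orm1 encodes a plasma glycoprotein that carries basic and lipid-like ligands. It had 79.4, 22.7 and 2.41 in tumors, 97.3, 207 and 285 in transgenic glands, and 707, 219 and 710.3 in NMRI glands (1451054_at). Tumors lay below both other groups, with 2 of 3 at the floor, and the glands overlapped, since transgenic gland 3 exceeded NMRI gland 2. Tumors differed from transgenic glands by -1.48 ± 0.49 and from NMRI glands by -2.91 ± 0.49 on the log2 scale. Transgenic differed from NMRI glands by -1.42 ± 0.49. These sizes depend on the floor, and the near copies Orm2 and Orm3 may contribute to the signal.

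Hp, whose product captures free haemoglobin, was the only member with a higher mean in transgenic than in NMRI glands. Signals of 1448881_at were 972, 392 and 98.7 in tumors, 2146, 7895 and 571.5 in transgenic glands, and 319, 266 and 982 in NMRI glands. Transgenic gland 2 was the highest of all arrays, and transgenic gland 3 lay below NMRI gland 3, so the groups overlapped. The log2 difference of transgenic against NMRI glands was 2.29 ± 0.97. Without transgenic gland 2 it was 1.34, and without the array of highest Gapdh ratio in each tissue group, an alternative added after the data were seen, it was 3.82. Tumors differed from transgenic glands by -2.67 ± 0.97 and from NMRI glands by -0.38 ± 0.97, the last of which turned to 0.50 without tumor 3. Transgenic gland 2 also had the highest macrophage and neutrophil marker levels of the transgenic glands, given below.

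**Figure D2:**
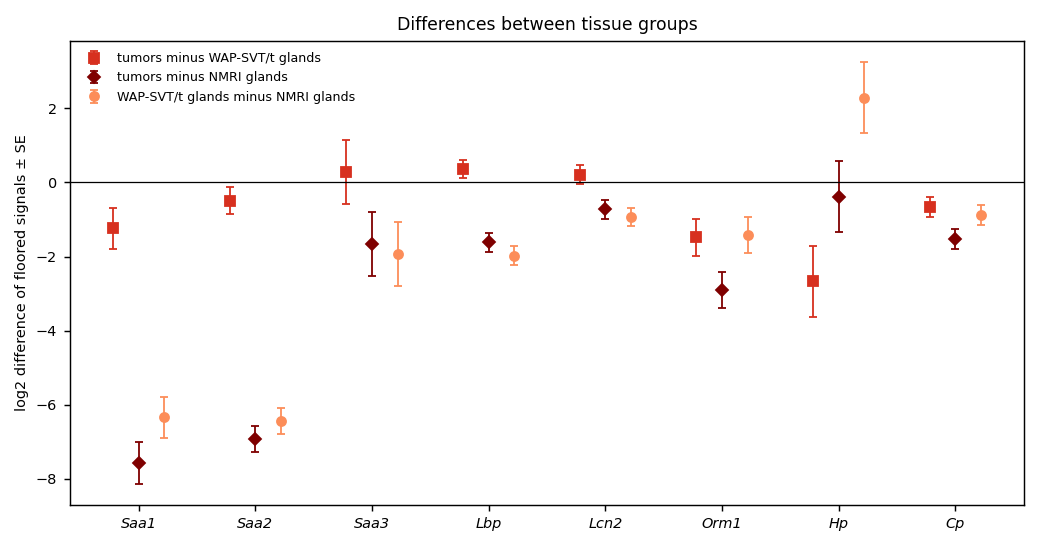
Log2 difference of floored signals, with its standard error from the fit over 9 arrays, for each of the 8 genes in 3 comparisons of tissue groups (n = 3 arrays each). Saa1 and Saa2 lie more than 6 units below 0 in both comparisons with NMRI glands, and Hp lies at 2.29 for WAP-SVT/t glands minus NMRI glands.

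Cp, which encodes the copper-binding ferroxidase of plasma, had 7 probe sets that disagreed in direction. The one that stood for the gene, 1417494_a_at, had 4379, 6607 and 3107 in tumors, 5522, 9412 and 6726 in transgenic glands, and 12712, 13388 and 12863 in NMRI glands. All tumors and transgenic glands were below all NMRI glands, and the log2 difference was -0.88 ± 0.27 for transgenic and -1.54 ± 0.27 for tumors against NMRI glands. Tumors and transgenic glands overlapped, with a difference of -0.65 ± 0.27. The probe sets 1417495_x_at, 1448734_at and 1455393_at followed it, 2.01-fold, 2.02-fold and 2.02-fold lower in transgenic than in NMRI glands with no overlap between those groups.

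Another pair of Cp probe sets ran the other way. The probe set 1448735_at had 344, 474 and 765 in tumors, 454, 422 and 378 in transgenic glands, and 193, 121 and 224 in NMRI glands. Every tumor and transgenic gland exceeded every NMRI gland on it, with log2 differences of 1.53 and 1.27 against NMRI glands. Likewise 1417497_at was higher in tumors and transgenic glands than in NMRI glands, by 1.32 and 0.93 on the log2 scale, with 2 of 3 NMRI glands at the floor.

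The last Cp probe set, 1417496_at, varied within each group. It had 107, 4536 and 1759 in tumors, 1570.2, 4983.5 and 206 in transgenic glands, and 5254, 6824 and 445 in NMRI glands. The lowest array of each group was the one with the highest Gapdh ratio, tumor 1, transgenic gland 3 and NMRI gland 3, and the part of RNA integrity in these values was not tested. Its log2 difference against NMRI glands was -1.10 in transgenic glands and -1.41 in tumors, with overlapping groups. The lower level of Cp in transgenic glands and tumors was thus shared by 5 of the 7 probe sets, 4 of them without overlap.

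**Figure D3:**
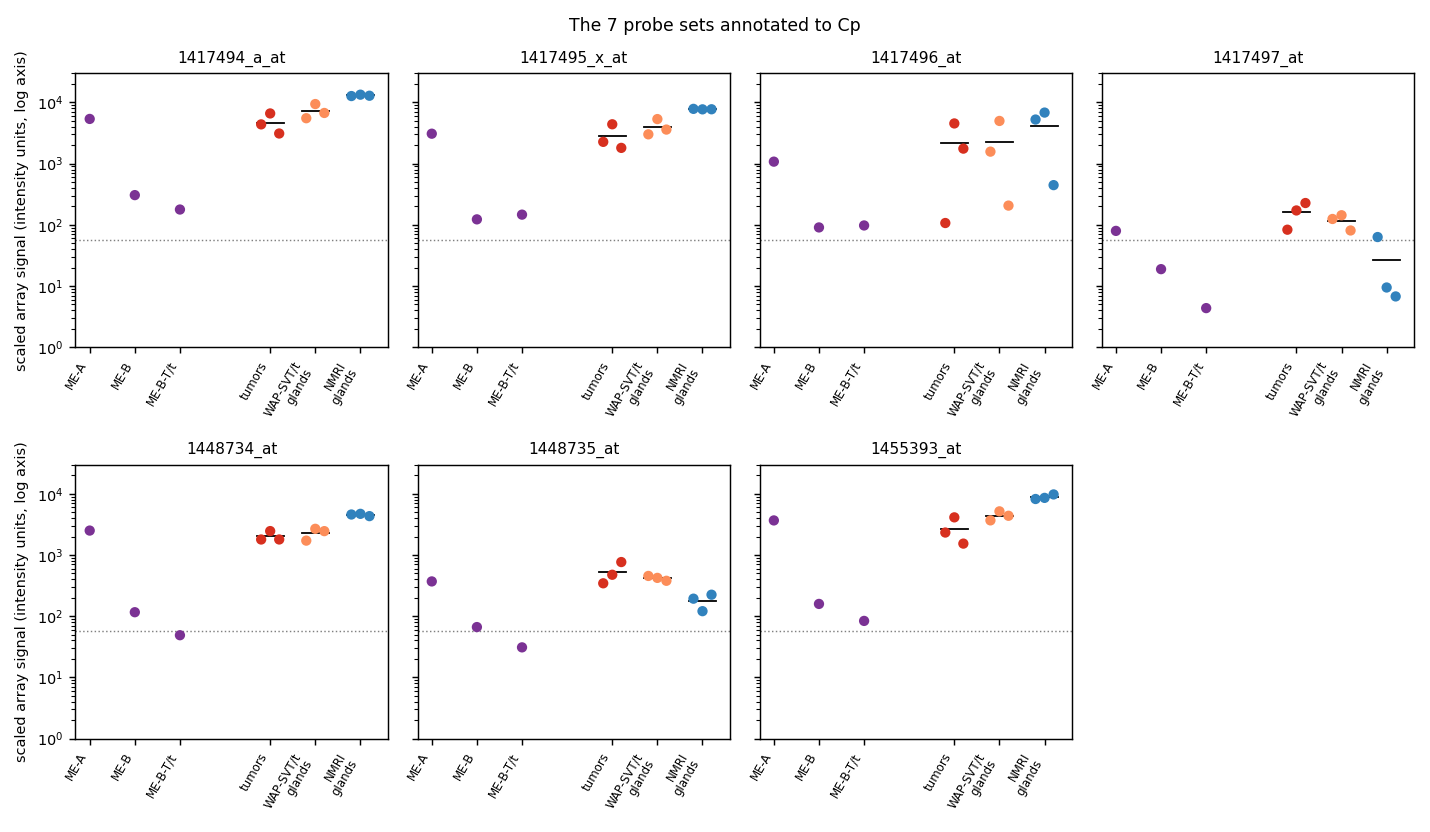
Scaled array signal (intensity units, log axis) of the 7 probe sets annotated to Cp on the 3 lines, 3 tumors, 3 WAP-SVT/t glands and 3 NMRI glands. Points are arrays, black bars are means of 3 arrays and the dotted line is the floor. The probe sets 1417497_at and 1448735_at are lowest in NMRI glands among the tissues, and 1417496_at spans more than 10-fold within each tissue group.

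Counted over the 8 genes, all transgenic glands lay below all NMRI glands for 5 members, Saa1, Saa2, Lbp, Lcn2 and Cp. Among all 7898 genes kept after the filter on low signals the share was 14.8%, but this contrast chose the list and nothing is read from the count. Tumors lay below all NMRI glands for 7 members, all but Hp, against 21.6% of all genes, and for 6 members after quantile normalization. This count shares the NMRI arrays with the contrast that chose the list. Tumors lay below all transgenic glands for 1 member, Orm1, against 10.9% of all genes. Against NMRI glands the median log2 difference over the 8 members was -1.64 in tumors and -1.68 in transgenic glands, beside 0.02 and 0.01 over all genes. Tumors had a member median of -0.57 relative to transgenic glands, beside -0.00 over all genes. These medians share arrays with the contrast that chose the list, so nothing is read from them either. All 8 members passed the filter, which asked for 3 arrays above the pooled median signal of 139.9. Saa1 and Saa2 passed only through the 3 NMRI glands and transgenic gland 2, and Orm1 only through glands, so the counts above are no support for a shared change.

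Marker genes of other cell types were read on the same arrays. Levels are means of log2 signals over the measured genes of a list. Macrophage markers, 15 measured of 16 listed, stood at 9.08 to 9.17 in tumors, 8.60 to 9.56 in transgenic glands and 8.17 to 8.43 in NMRI glands. Their mean level was thus lowest in the glands where Saa1 and Saa2 were highest, but not every gene ran this way. Adgre1 had 395, 384 and 616.5 in transgenic glands and 789, 600 and 611 in NMRI glands. Cd14 had 2806, 8105 and 4013 in transgenic glands and 4845, 12518 and 9634 in NMRI glands. Itgam was below the floor on all 12 arrays and Marco on 11. Neutrophil markers, 12 of 14, stood at 7.01 to 7.60 in tumors, 7.01 to 7.94 in transgenic glands and 7.21 to 7.66 in NMRI glands. Within that list Ctsg, a neutrophil protease gene, was below the floor on all 12 arrays and Camp on 11, while Ngp, Mmp8 and Ltf were above it on all 12. S100a8, a calprotectin subunit gene, had 581, 1743 and 198 in tumors, 244, 928 and 192 in transgenic glands, and 279, 98.4 and 669 in NMRI glands. S100a9, the gene of its partner, had 342, 1385 and 191 in tumors, 198, 648 and 119 in transgenic glands, and 90.8, 96.0 and 259 in NMRI glands. Both were highest in tumor 2 and, among transgenic glands, in gland 2. Hepatocyte markers, 13 of 14, stood between 6.01 and 6.77 on every array. Fga, Fgb and Ahsg were below the floor on all 12 arrays, while Cps1, Tdo2 and Cyp2e1 were above it on all 12. Cyp2e1, a cytochrome P450 gene, had 710 in tumor 1 and at most 102 in the other tumors, 2187.5, 1219 and 3665 in transgenic glands, and 1565.5, 347 and 3203 in NMRI glands.

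The tissue's own markers also differed between groups. Luminal epithelium markers, 12 of 13, stood at 10.4 to 11.1 in tumors, 10.7 to 11.1 in transgenic glands and 10.97 to 11.8 in NMRI glands. Milk protein genes, 12 of 12, stood at 8.03 to 9.01 in tumors, 11.3 to 11.8 in transgenic glands and 13.5 to 13.7 in NMRI glands. No array of one group overlapped another group. Adipocyte markers, 10 of 12, stood at 6.92 to 9.39 in tumors, 10.5 to 11.4 in transgenic glands and 10.3 to 10.7 in NMRI glands, with tumor 1 the highest tumor. Skeletal muscle markers, 15 of 15, were at 9.59 in tumor 1 and at most 6.16 in the other tumors, at 10.2 in transgenic gland 3 and at most 6.79 in the other transgenic glands, and at 9.31 to 10.2 in NMRI glands. The part of these cell mixtures in the members' values was not tested.

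**Figure D4:**
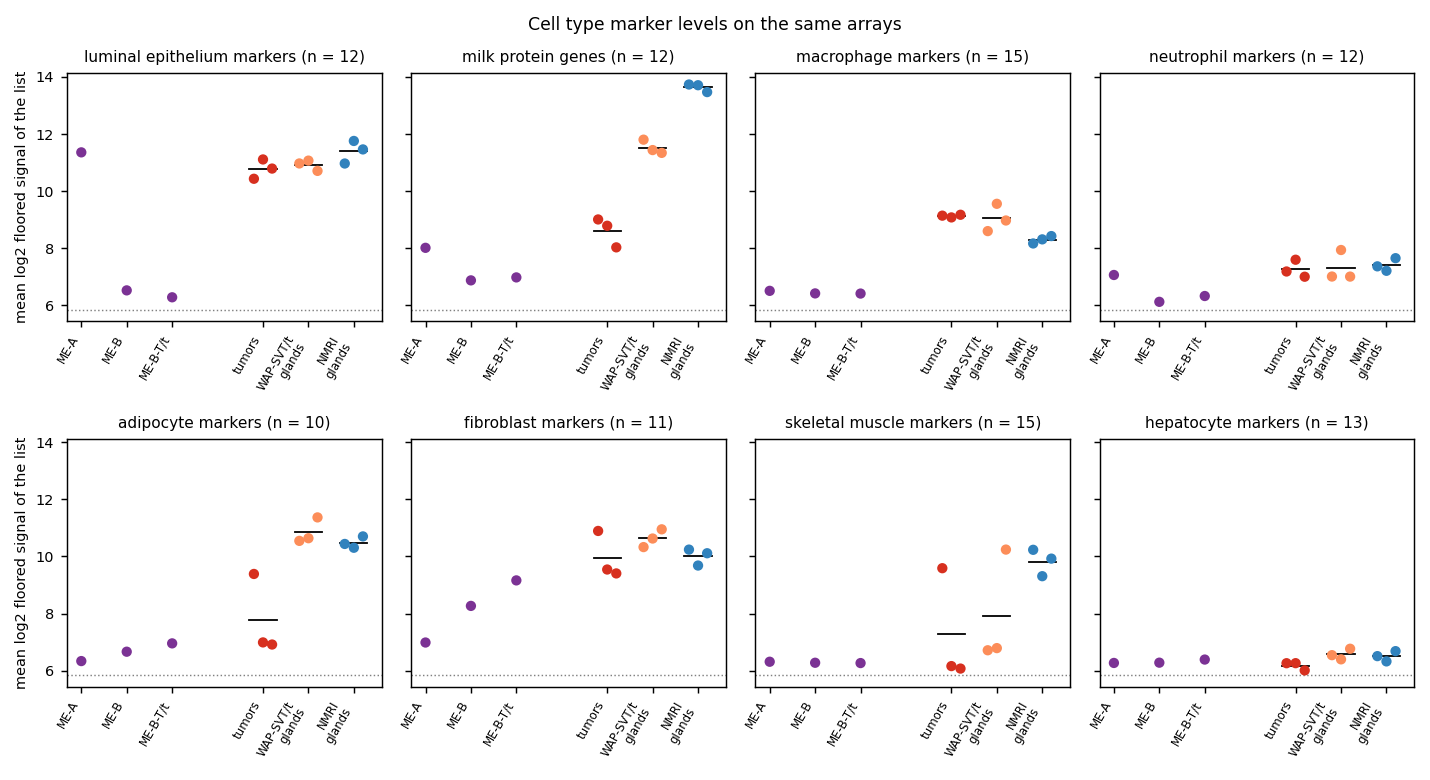
Mean log2 floored signal of 8 marker lists (n is the number of measured genes) on the 3 lines, 3 tumors, 3 WAP-SVT/t glands and 3 NMRI glands. Points are arrays, black bars are means of 3 arrays and the dotted line is the floor. Milk protein genes step up over tumors, transgenic glands and NMRI glands, luminal markers are high in ME-A and low in ME-B and ME-B-T/t, and hepatocyte markers lie between 6.01 and 6.77 throughout.

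Among the lines, ME-A had the highest signal of every member but Orm1, which was below the floor in every line. Each line had 1 array, so these are values without a replicate check. Saa1 had 5034 in ME-A, against 7.003 in ME-B and 8.62 in ME-B-T/t (1450788_at), which makes ME-A at least 87.6-fold higher than either. Saa2 had 2565 in ME-A, 29.3 in ME-B and 36.0 in ME-B-T/t, a difference of at least 44.6-fold. Both were therefore bright in ME-A although they were below the floor in all 3 tumors.

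Saa3 had 871 in ME-A, 76.7 in ME-B and 90.2 in ME-B-T/t, so that ME-A was 11.3-fold higher than ME-B and 9.65-fold higher than ME-B-T/t. Lcn2 had 9742 in ME-A, within the range of the tumors and transgenic glands, and 46.9 in ME-B and 97.5 in ME-B-T/t. ME-A exceeded ME-B by at least 170-fold and ME-B-T/t by 99.9-fold. Cp had 5375 in ME-A, 306 in ME-B and 178 in ME-B-T/t, 17.6-fold and 30.2-fold apart from ME-A. All 7 Cp probe sets were highest in ME-A among the lines, including the 2 that ran the other way in tissue.

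Lbp also differed between ME-B-T/t and ME-B, with 1118 in ME-A, 122 in ME-B and 468 in ME-B-T/t. ME-A was 9.19-fold above ME-B and 2.39-fold above ME-B-T/t, and ME-B-T/t was 3.85-fold above ME-B. Hp had 205 in ME-A and was below the floor in ME-B and ME-B-T/t, at least 3.57-fold lower there. Orm1 was below the floor in all 3 lines, at 5.07 in ME-A, 5.16 in ME-B and 9.85 in ME-B-T/t, and no fold is given. By a rule of 4-fold above both other lines, 5 members counted as higher in ME-A, Saa1, Saa2, Saa3, Lcn2 and Cp, against 2.83% of 7945 genes. The filter behind this share asked for a line above 139.9. Saa1, Saa2, Saa3 and Lcn2 passed it only through ME-A, where they were then counted as high, so nothing is read from the count. Luminal epithelium markers ran alongside, at 11.4 in ME-A, 6.53 in ME-B and 6.29 in ME-B-T/t. The mean of the fibroblast markers ran the other way, at 6.99, 8.27 and 9.16, but not through every gene. Dcn and Fap were below the floor in all 3 lines, and Fn1 was bright in each, at 6922, 7712 and 10049. Whether the members' values in the lines follow from these differences was not tested.

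The lines as a class were compared with the tumors, a contrast that uses no array of the transgenic and NMRI glands. Saa3, Lbp, Lcn2, Hp and Cp could be tested. Of these 5 genes 0 passed in limma at an adjusted p under 0.05, where 2.3% of 7344 genes did. Lbp averaged 569 ± 506 in lines and 2049.8 ± 239 in tumors (SD, n = 3 each). All lines lay below all tumors for Lbp, as for 12.3% of all genes, with a log2 difference of -2.35 ± 0.72 (limma, adjusted p = 0.171). Lcn2 had a log2 difference of -4.59 ± 1.77 (limma, adjusted p = 0.258). Cp had -2.75 ± 1.18, Hp -1.93 ± 0.88 and Saa3 -1.12 ± 0.92, with limma's adjusted p at 0.298, 0.325 and 0.574.

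Single lines moved these values. Without ME-A the log2 differences of ME-B and ME-B-T/t against tumors were -4.26 for Cp and -3.10 for Lbp. Lcn2 and Saa3 had -6.93 and -2.25 without ME-A, and both then passed the filter on low signals through the 3 tumors only. These values are given without a p. Without ME-B the difference for Lbp was -1.50, and without ME-B-T/t that for Cp was -1.81. ME-B and ME-B-T/t have 1 array each and share a name, so they are not replicates of 1 condition. In the fit without ME-A 784 of all genes passed, against 169 with it. Other single arrays lowered that count, to 0 without tumor 1, 1 without tumor 2, 3 without tumor 3, 61 without ME-B and 85 without ME-B-T/t. Saa1, Saa2 and Orm1 could not be tested, because at most 1 of the 6 arrays lay above the median signal. Saa1 and Saa2 lay at least 6.45 and 5.48 log2 units higher in ME-A than the floor at which the tumors stood.

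Genes around the members were read from 4 lists without the members: other acute phase plasma proteins, cytokines that induce them with their receptors, the STAT3, NF-kappaB and C/EBP pathway, and receptors and partners of the members' products. The members themselves are not in these counts. The call was an adjusted p under 0.05 from limma, with the adjustment over all genes.

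Between transgenic and NMRI glands 10.1% of all genes passed. Of 9 other acute phase genes tested, 1 was called higher and 0 lower, with a list median of -0.26. This was Serpina3n, a serine protease inhibitor gene known as an inflammation marker, with 379 ± 129 in transgenic and 54.8 ± 38.4 in NMRI glands (5.30-fold, limma adjusted p = 0.0395, 2 NMRI glands at the floor). Receptors and partners had 1 of 13 called higher and 2 lower. Tfrc, the transferrin receptor gene, fell 3.68-fold (limma, adjusted p = 0.00698), with 946 ± 530 in transgenic and 3233 ± 851 in NMRI glands. Tlr2, a receptor gene for bacterial lipoproteins and serum amyloid A, fell 2.66-fold (limma, adjusted p = 0.0134). Lrp1, a scavenger receptor gene, rose 2.63-fold (limma, adjusted p = 0.0468). None of 13 cytokine and receptor genes and none of 27 pathway genes passed.

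Single arrays bore on these calls. Serpina3n no longer passed when any of the 6 glands or tumor 2 was left out (adjusted p from 0.0552 to 0.135 in those fits), nor did Lrp1 when tumor 2 or any gland but transgenic gland 3 was left out (0.0618 to 0.146). Tlr2 did not pass without NMRI gland 2 (0.0616). Over all 20 alternatives the adjusted p ranged from 0.00645 to 0.255 for Serpina3n, from 0.0249 to 0.293 for Lrp1, from 0.00358 to 0.0844 for Tlr2 and from 0.00122 to 0.0782 for Tfrc. Stat3 and Cebpd were singled out after their values were seen, as 2 of several listed genes of factors that act on these genes. Neither passed in transgenic against NMRI glands. The median log2 difference over the 27 tested genes of the STAT3, NF-kappaB and C/EBP list was 0.01. Stat3 averaged 2105 ± 367 in transgenic and 2939 ± 1637 in NMRI glands (limma, adjusted p = 0.748). Cebpd averaged 1015 ± 866 in transgenic and 1585 ± 757 in NMRI glands (limma, adjusted p = 0.366). Cebpb ran the other way, with 2776 ± 194 in transgenic and 2523 ± 1003 in NMRI glands (limma, adjusted p = 0.655).

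Between tumors and transgenic glands 2.95% of all genes passed. Of 9 other acute phase genes 1 fell, Ltf, the gene of the iron-binding milk protein lactoferrin. Its signals were 1140, 1054 and 2244 in tumors against 7350.1, 9964 and 8764.5 in transgenic glands (6.198-fold, limma adjusted p = 0.00058), and it held in all 20 alternatives. Ltf is in the neutrophil marker list as well. Of 13 cytokine and receptor genes, Il1rap, the shared subunit gene of interleukin 1 receptors, rose 2.36-fold (limma, adjusted p = 0.0104), and Il6st, the gene of the signalling subunit gp130, fell 2.83-fold (limma, adjusted p = 0.0267). Cd36, a scavenger receptor gene also counted among adipocyte markers, fell 23.0-fold as 1 of 13 receptors and partners (limma, adjusted p = 0.00648), with 1 tumor at the floor. None of 27 pathway genes passed.

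Il1rap did not pass without tumor 2 (adjusted p = 0.0513). Il6st did not pass without tumor 2, tumor 3, transgenic gland 2 or transgenic gland 3 (adjusted p from 0.0671 to 0.134). Over 20 alternatives the adjusted p of Il6st in this comparison ranged from 0.0123 to 0.248 and that of Il1rap from 0.00969 to 0.0781.

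Between tumors and NMRI glands 24.7% of all genes passed. Of 9 other acute phase genes 4 fell: Ltf 8.42-fold (limma, adjusted p = 1.72e-05), the glycoprotein gene Lrg1 8.16-fold (adjusted p = 0.00164), the lipopolysaccharide co-receptor gene Cd14 3.16-fold (adjusted p = 0.0248) and the metallothionein gene Mt1 1.83-fold (adjusted p = 0.0287). Lrg1 averaged 585 ± 314 in tumors and 4300.1 ± 896 in NMRI glands, and lay in between in transgenic glands at 1941 ± 1323. Of 13 cytokine and receptor genes 2 rose and 2 fell. Il1rap was 3.25-fold higher (limma, adjusted p = 0.00023) and Tnfrsf1b 2.13-fold higher (adjusted p = 0.0342). Il6st was 2.07-fold lower (adjusted p = 0.0284) and the leukemia inhibitory factor receptor gene Lifr 2.15-fold lower (adjusted p = 0.0393).

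In the STAT3, NF-kappaB and C/EBP list, 2 of 27 genes rose and 1 fell in tumors against NMRI glands. Nfkbiz, the gene of the nuclear inhibitor IkappaBzeta that helps induce Lcn2, had 510 ± 71.9 in tumors and 183 ± 32.9 in NMRI glands (2.80-fold higher, limma adjusted p = 0.00285). Nfkb2 was 4.17-fold higher (limma, adjusted p = 0.0351, 2 NMRI glands at the floor) and Stat5a, a factor of the prolactin response, 2.62-fold lower (adjusted p = 0.0275). Of 13 receptors and partners 5 fell and 0 rose. Besides Cd14 these were Cd36, 37.8-fold lower (limma, adjusted p = 0.000391), Tlr2, 4.73-fold lower (adjusted p = 0.000435), and Tfrc, 2.64-fold lower (adjusted p = 0.016). The last was Ly96, the gene of the lipopolysaccharide receptor subunit MD-2, 2.64-fold lower, with 81.9 ± 17.4 in tumors. No p is given for Ly96, because it passed the filter on low signals through glands only. Cd14 and Ly96 act after Lbp in lipopolysaccharide recognition.

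Ltf, Lrg1, Il1rap, Nfkbiz, Cd36 and Tlr2 passed between tumors and NMRI glands in all 20 alternatives. The other 9 calls were each lost when some single array was left out. These arrays were tumors 1 and 3 and NMRI glands 2 and 3 for Cd14, tumors 2 and 3 and NMRI glands 2 and 3 for Il6st, and any of the 6 for Lifr. They were tumor 2 and NMRI glands 2 and 3 for Mt1, tumors 2 and 3 and NMRI glands 1 and 3 for Nfkb2, and all but NMRI gland 3 for Stat5a. They were NMRI glands 1 and 3 for Tfrc, tumors 1 and 2 and NMRI glands 1 and 2 for Tnfrsf1b, and tumor 3 for Ly96. Ly96 could be tested in only 6 of 9 fits without 1 array and in 16 of the 20 alternatives. The highest limma adjusted p over all alternatives was 0.2 for Il6st, 0.174 for Cd14, 0.148 for Mt1 and 0.901 for Tnfrsf1b. It was 0.127 for Lifr, 0.11 for Stat5a, 0.125 for Nfkb2 and 0.207 for Tfrc, and none is given for Ly96. Tnfrsf1b turned to -0.05 on the log2 scale with the mean of its probe sets, so its direction depends on how probe sets are summarised.

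Between lines and tumors the only called gene of the 4 lists was Serping1, the C1 inhibitor gene. It had 95.1 ± 12.8 in lines and 959 ± 604 in tumors, 9.01-fold lower. No p is given for Serping1, because it passed the filter on low signals through the 3 tumors only. It was not called without ME-B, and it could not be tested when any tumor was left out. The list counts were 1 of 7 other acute phase genes, 0 of 11 cytokine and receptor genes, 0 of 26 pathway genes and 0 of 10 receptors and partners.

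**Figure D5:**
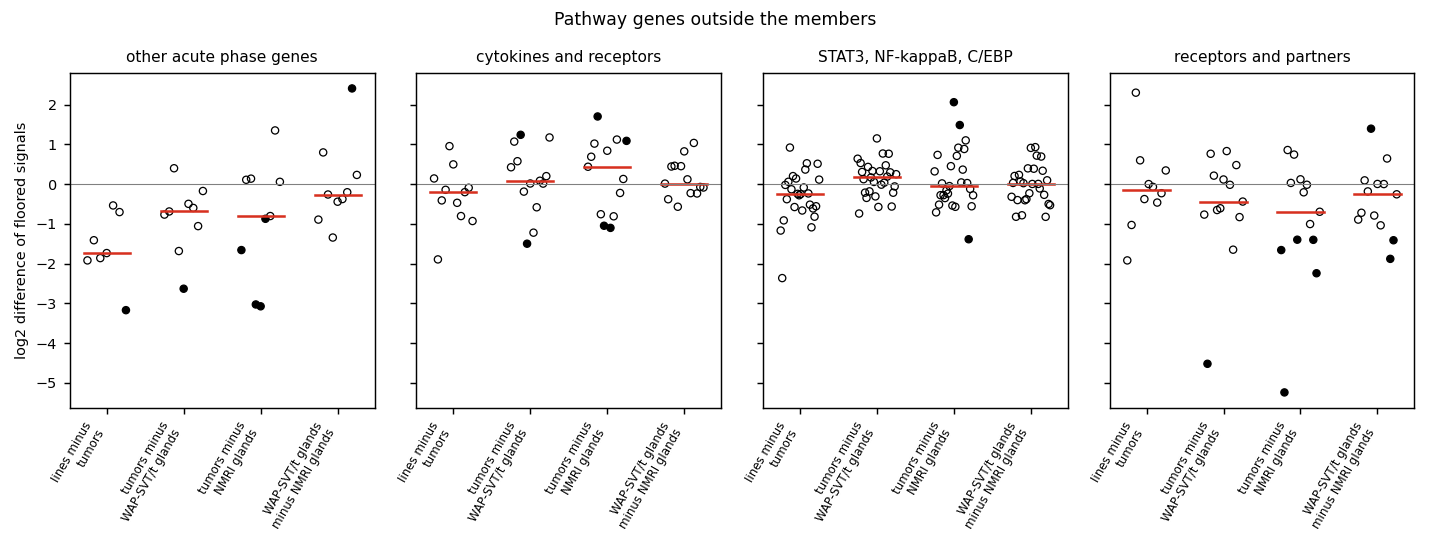
Log2 difference of floored signals of each tested gene in 4 lists that exclude the 8 members, for 4 comparisons. Filled points passed at an adjusted p under 0.05, open points did not, and red lines are list medians. Called genes of the first list lie below 0 in the comparisons that involve tumors, with Serpina3n above 0 between the glands.

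The members differed among themselves in how they ran over the 12 arrays. Correlations of log2 floored signals are given as descriptions over arrays that share tissues and lines. Saa1 and Saa2 had a Pearson r of 0.988, Lcn2 and Cp 0.960, Lbp and Lcn2 0.876 and Lbp and Cp 0.875. Saa1 with Saa3 had 0.696, and Hp had 0.143 with Saa1 and 0.042 with Saa2.

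Among 8178 genes, the profile most like Saa1 and Saa2 was that of Mfsd4a, with r of 0.936 and 0.953. It had 61.7, 75.2 and 21.3 in tumors, 113, 72.1 and 79.5 in transgenic glands, and 389, 256 and 388 in NMRI glands, with 305 in ME-A and values below the floor in ME-B and ME-B-T/t. Next came Atp6v0a2 (0.929) and Cib1 (0.925) for Saa1, and Hdlbp (0.951) and Reep6 (0.943) for Saa2. The nearest profiles to Lcn2 were Ctsh (0.991), Syne4 (0.990) and Fxyd3 (0.990), and to Cp Mgst1 (0.992), Spint2 (0.981) and Tmc4 (0.975). Ctsh had 1786 in ME-A, 71.9 in ME-B and 115 in ME-B-T/t, and between 2064 and 3470.3 in the 9 tissue samples, low in ME-B and ME-B-T/t as Lcn2 was.

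Lbp ran closest to Tcn2 (0.962), Slc7a7 (0.947) and H13 (0.931). Tcn2, the gene of a vitamin B12 carrier, had 774 in ME-A, 88.0 in ME-B and 282 in ME-B-T/t, the same order as Lbp. Likeness was weaker for Saa3, with Ppp2r5c (0.910), Tm2d3 (0.909) and Smpd2 (0.894), and for Hp, with Acp5, Npl and Ighm (0.863 each). Orm1 ran closest to Tmem234 (0.947), Fdx1 (0.945) and Actr8 (0.941).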

How the data were processed

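The deposited table holds 1 linear intensity per probe set and array, summarised by the authors with MAS5, per the submitters' processing notes. The MAS5 version is not given in the sources used here. Each array was scaled to the common mean of signals between the 2nd and 98th percentiles, which had differed by up to 1.19-fold. Control probe sets (64) were left out, and signals were floored at 57.5 and log2 transformed. Probe sets naming 1 gene (20380) were used, and those naming several (691) or none (1555) were not. Of a gene's probe sets, the one with the highest mean log2 signal in a fit was used.

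Genes with at least 3 arrays above 139.9 entered two-sided limma fits (version 3.58.1, R 4.3.3) with a variance trend on mean signal, and p-values were adjusted by Benjamini and Hochberg's method over every gene tested. The 9 tissue arrays were fitted together (6 residual degrees of freedom) and lines with tumors apart (4). The fits were tried on simulated data with normal noise and no floor, where small changes were recovered in part only. Same-numbered transgenic and NMRI glands deviated together (r = 0.22, 0.37 and 0.37 over genes), with r over 0.1 for every number. Tumors did so for number 2 (r = 0.33 with the transgenic and 0.16 with the NMRI gland) but not for numbers 1 and 3 (r from -0.17 to 0.01), so only the glands were taken as possibly paired. The labels give no reason for a pairing. Promoters were aligned with Biopython 1.88, and figures drawn with matplotlib 3.10.9 in Python 3.11.15.

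Members, lists and tests were chosen with earlier results of these data known. Named list genes were those called, at most the 4 of smallest adjusted p per list and comparison. Named similar genes were the 3 of highest correlation per member. Alternatives covered the floor, normalization, probe set summary, filter, variance trend, replicate number as a block, and arrays left out.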

Additional observations from a re-analysis of the deposited data

How the results depend on the processing

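Precision is limited by 3 arrays a group. Of 8 members, the counts lower without overlap against NMRI glands lay between 4 and 7 for transgenic glands and between 6 and 7 for tumors over 20 alternatives. The block and the variance trend do not enter these counts, so those settings could not change them. The count for tumors against transgenic glands, 1, was 0 with the floor at the 45th percentile and 4 without the array of highest Gapdh ratio in each tissue group, and 1 to 3 without 1 array. For lines against tumors it was 1 to 4 without 1 array. Groups of fewer arrays separate more easily, and the share of all genes at these settings is not given, so nothing is read from these rises. Log2 differences of lines against tumors without 1 array ran from -2.25 to -0.50 for Saa3, -3.10 to -1.50 for Lbp, -6.93 to -3.23 for Lcn2 and -4.26 to -1.81 for Cp. Quantile normalization turned Lcn2 in tumors against NMRI glands to 0.11. The Cp probe sets 1417497_at and 1448735_at gave 0.93 and 1.27 for transgenic against NMRI glands, 0.39 and 0.26 for tumors against transgenic glands, and 1.32 and 1.53 for tumors against NMRI glands. Tnfrsf1b turned to -0.052 in tumors against NMRI glands with the mean of its probe sets. The cause of these turns was not tested.

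Genes called without 1 array ran from 399 to 807 for transgenic against NMRI glands, 69 to 230 for tumors against transgenic glands, 1227 to 2280 for tumors against NMRI glands and 0 to 784 for lines against tumors. With no filter they were 71 for tumors against transgenic glands and 91 for lines against tumors. Without the arrays of highest Gapdh ratio these were 148 and 0. Without transgenic gland 2 and NMRI gland 2, the glands of lowest Gapdh ratio, 303 passed between the glands. With the replicate number as a block (replicate block), 928, 284 and 2152 genes passed in the 3 tissue comparisons. The member counts do not use the block.

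Called genes of the 4 lists together numbered 4 between transgenic and NMRI glands (1 to 4 without 1 array), 4 between tumors and transgenic glands (2 to 4), 15 between tumors and NMRI glands (8 to 15) and 1 between lines and tumors (0 to 11). For lines against tumors they were 3 with the floor at the 45th percentile, 2 with signals as deposited, 2 with the mean of probe sets and 0 without the arrays of highest Gapdh ratio. For transgenic against NMRI glands they were 2 with the mean of probe sets, 2 with no filter, 1 without the arrays of highest Gapdh ratio and 2 without transgenic gland 2 and NMRI gland 2. With no filter they were 2 for tumors against transgenic glands and 7 for tumors against NMRI glands, and without those 2 glands 2 and 8. Both settings that leave out arrays by their Gapdh ratio were chosen after seeing the data.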
